A study of Mus musculus with 12 samples.

Results

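Cyp1a2, Cyp2d9, Cyp2d10, Cyp2d22, Cyp2d26, Cyp2e1 and Cyp2f2 are cytochrome P450 genes of the mouse liver, most of them transcribed at very high levels. Their values were taken from the deposited table of transcript abundance in FPKM (sequenced fragments scaled by transcript length and library size), summed over the RefSeq transcripts of each gene. The 7 genes were chosen by name, out of 24910 genes in the table, of which 104 have symbols starting with Cyp. Livers came from male C57BL/6J mice, 2 in each of 3 groups. Control mice ate standard chow for 28 weeks and had no surgery. Sham and VSG mice were given a high-fat diet with 60% of its calories from fat from the age of 8 weeks, for 14 weeks before and 14 weeks after an operation. In the VSG (vertical sleeve gastrectomy) group about 80% of the stomach was removed, and in the Sham group the stomach was isolated and pressed with forceps. Both operated groups received a liquid diet for 4 days after surgery. Control and Sham mice differed in both diet and surgery, so that diet and surgery cannot be told apart between them. RNA-seq and FAIRE-seq, which enriches open chromatin, were made from the same livers, and each gene is described first in RNA and then in chromatin.

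Cytochrome P450 enzymes are heme-containing monooxygenases of the endoplasmic reticulum that insert oxygen into drugs, steroids, fatty acids and other lipophilic molecules, with electrons passed on from P450 reductase and cytochrome b5. Hepatocytes do not all make the same enzymes: along the axis from the portal vein to the central vein, cells near the central vein are known for most P450 enzymes, and cells near the portal vein for urea synthesis and glucose production. Cyp2e1, which oxidises ethanol, acetone and acetaminophen, and Cyp1a2, which oxidises caffeine and aromatic amines and is induced through the aryl hydrocarbon receptor, are pericentral genes. Cyp2f2, the enzyme that activates naphthalene, is a periportal exception. The Cyp2d genes form a cluster of close relatives on chromosome 15, of which Cyp2d9 is known as a male-biased testosterone hydroxylase.

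The genes lie on 3 chromosomes of mm9 (NCBIM37), the build of the deposited files, with coordinates taken from its GENCODE annotation. Cyp2e1 spans chr7:147949638-147960874 and Cyp2f2 spans chr7:27904928-27918679, both on the plus strand. Cyp1a2 spans chr9:57524744-57531462 on the minus strand. On chromosome 15, Cyp2d9 spans chr15:82282807-82287257 on the plus strand, and Cyp2d10, Cyp2d22 and Cyp2d26 span chr15:82233276-82237624, chr15:82200958-82210690 and chr15:82620537-82624675 on the minus strand.

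The Cyp2d genes resemble each other so closely that sequence limits how their transcripts can be measured. The coding sequences of Cyp2d9 and Cyp2d10 were identical at 92.5% of aligned bases, against 81.4% for Cyp2d26 and Cyp2d9 and 59.5% for Cyp2f2 and Cyp2e1. Reads were 50 bases long, and 38.4% of the 50-base words of the Cyp2d10 transcript occurred in protein-coding transcripts of 8 other genes. Only protein-coding transcripts were searched, so that words shared with pseudogenes were not counted. The share was 29.0% for Cyp2d9, 10.9% for Cyp2d26 and 6.14% for Cyp2d22. By contrast, it was 5.1% for Cyp1a2, all of it shared with Cyp1a1, 2.53% for Cyp2e1 and 0% of the words for Cyp2f2. The longest run of coding sequence common to Cyp2d9 and Cyp2d10 is shown because no 50-base read inside it can be given to either gene. It has 164 bases, from coding position 318 to 481 in both genes, and crosses an exon junction, so that it has no unbroken position in the genome.
Cyp2d9 and Cyp2d10 shared coding run: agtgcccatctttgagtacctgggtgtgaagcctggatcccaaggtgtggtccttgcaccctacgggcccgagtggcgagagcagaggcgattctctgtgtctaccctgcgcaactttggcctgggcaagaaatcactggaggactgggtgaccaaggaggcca

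Promoters are shown for Cyp2e1, Cyp1a2, Cyp2f2, Cyp2d9 and Cyp2d10, while that of Cyp2d26 was searched in the same way but is not printed. Each is the 250 bases before the RefSeq start site, placed in mm9 by an exact match of the RefSeq promoter sequence (build GRCm38.p6), written 5′ to 3′ along the gene. Capitals mark matches, on either strand, to 5 motifs: the TATA box TATAAA, the HNF1 monomer site GTTAAT, the HNF4 site CAAAGTCCA, the C/EBP site TTGCNNAA and the xenobiotic response element core GCGTG. These occurred in 12.4%, 6.43%, 0.384%, 9.56% and 28.2% of 32851 RefSeq promoter windows of the same length. The RefSeq start site of Cyp2e1 lies 80 bases, and that of Cyp2f2 46 bases, downstream of the GENCODE start, and those of the other genes shown coincide.
Cyp2e1, chr7:147949468-147949717, plus strand: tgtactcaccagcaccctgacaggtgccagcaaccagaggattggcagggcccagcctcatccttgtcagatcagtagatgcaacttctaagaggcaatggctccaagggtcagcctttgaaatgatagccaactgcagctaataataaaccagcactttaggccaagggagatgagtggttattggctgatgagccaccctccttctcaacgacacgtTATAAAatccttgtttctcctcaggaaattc
Cyp1a2, chr9:57531463-57531712, minus strand: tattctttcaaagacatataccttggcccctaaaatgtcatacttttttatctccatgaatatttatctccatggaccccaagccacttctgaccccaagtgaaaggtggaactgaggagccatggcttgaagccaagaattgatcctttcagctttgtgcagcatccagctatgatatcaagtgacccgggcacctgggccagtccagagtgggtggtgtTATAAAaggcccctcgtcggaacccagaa
Cyp2f2, chr7:27904724-27904973, plus strand: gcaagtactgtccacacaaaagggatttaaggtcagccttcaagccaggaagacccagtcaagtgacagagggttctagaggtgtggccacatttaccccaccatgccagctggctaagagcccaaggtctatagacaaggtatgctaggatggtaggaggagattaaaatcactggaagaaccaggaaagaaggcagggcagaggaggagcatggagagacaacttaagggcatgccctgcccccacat
Cyp2d9, chr15:82282557-82282806, plus strand: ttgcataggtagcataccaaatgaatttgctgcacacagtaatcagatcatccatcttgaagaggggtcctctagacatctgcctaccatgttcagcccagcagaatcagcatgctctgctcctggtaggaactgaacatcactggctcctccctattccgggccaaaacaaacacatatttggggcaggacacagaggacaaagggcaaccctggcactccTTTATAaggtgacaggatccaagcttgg
Cyp2d10, chr15:82237625-82237874, minus strand: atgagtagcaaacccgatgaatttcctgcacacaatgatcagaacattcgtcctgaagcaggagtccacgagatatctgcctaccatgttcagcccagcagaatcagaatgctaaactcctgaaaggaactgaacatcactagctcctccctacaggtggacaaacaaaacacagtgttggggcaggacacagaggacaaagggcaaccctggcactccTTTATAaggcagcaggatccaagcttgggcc

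A TATAAA match, 6 bases long, began at a position between -28 and -31 relative to the start site in Cyp2e1, Cyp1a2, Cyp2d9, Cyp2d10 and Cyp2d26, read on the opposite strand in the Cyp2d genes. The Cyp2f2 window held no match to any of the 5 motifs. Cyp2d26 also held an HNF1 monomer site at position -90. The Cyp2d9 and Cyp2d10 windows were identical at 82.3% of aligned bases, whereas those of Cyp2d26 and Cyp2d9 matched at 50.5%. A match to so short a word describes the sequence and is not a binding site.

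Library depth relative to Control mouse 1, read from the steps between low FPKM values, ranged from 0.675 in Sham mouse 1 to 1.56 in VSG mouse 1. The hepatocyte markers Apoa1 and Fabp1 were among the highest values of every library, which matches the tissue label. Sham mice differed more from each other than the mice of the other groups, with 23.5% of genes at least 2-fold apart, against 11.1% in Control and 17.2% in VSG mice. Sham mouse 2 had the lowest value of all 6 mice in 6 of the 7 genes, and values without it are given where they change a direction.

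Cyp2e1 was the most abundant of the genes in all 6 mice, and its mean over mice ranked 11 among the 9869 genes that reached an FPKM of 1 in 2 or more mice. Its FPKM was 4111 and 4036 in Control mice, 4686 and 2047 in Sham mice, and 4535 and 6479 in VSG mice. Sham mice therefore lay on both sides of the Control values, while both VSG mice lay above them. The Control mean was 4073 ± 52.8 (SD, n = 2), and the Sham mean was 3366 ± 1866 (SD, n = 2).

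Cyp1a2, the least abundant of the 6 genes measured in every mouse, varied most. Its FPKM was 213 and 168 in Control mice, 101 and 13.1 in Sham mice, and 103 and 270 in VSG mice. Both Sham mice lay below both Control and both VSG mice, although Sham mouse 1 and VSG mouse 1 differed little. The highest mouse was 20.5-fold above the lowest, and the Sham mice alone were 7.68-fold apart.

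Cyp2f2 was lower in every mouse on the high-fat diet than in either Control mouse. Its FPKM was 730 and 657 in Control mice, 237 and 73.4 in Sham mice, and 209 and 429 in VSG mice. The Control mice differed 1.11-fold, whereas the Sham mice differed 3.23-fold and the VSG mice 2.06-fold. The Control mean was 694 ± 51.9, the Sham mean 155 ± 116 and the VSG mean 319 ± 156 (SD, n = 2 each). In bulk tissue, fewer cells that make a transcript and less of it per cell cannot be told apart.

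Of the Cyp2d genes, Cyp2d9 had an FPKM of 1053 and 839 in Control, 1018 and 333 in Sham, and 1044 and 803 in VSG mice. Cyp2d10 had 608 and 480 in Control, 696 and 246 in Sham, and 667 and 636 in VSG mice. In both genes Sham mouse 2 alone was low, and the other 5 mice lay close together. Cyp2d26 had 751 and 682 in Control, 899 and 666 in Sham, and 830 and 1040 in VSG mice, and was the steadiest of the 6 genes, with the highest mouse 1.56-fold above the lowest.

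Cyp2d22 was listed at 0 in 5 mice and at 58.3 in Sham mouse 2, so that it was the 1 gene of the 7 that did not pass the filter on low values. A listed 0 need not mean that reads were absent. Among relatives, Cyp2d11 and Cyp2d12 were listed at 0 in all mice, Cyp2d34 reached 18.5 in VSG mouse 2, and Cyp2d40 reached 111 in Sham mouse 1 with 0 in the other 5 mice. The pseudogene Cyp2d13 was listed at 193 in Control mouse 2 and 160 in Sham mouse 2, and was 0 elsewhere. The authors' mean normalised count over Control and Sham mice was nevertheless 603 for Cyp2d40 and 1367 for Cyp2d13. No mean count was given for Cyp2d22.

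**Figure D1:**
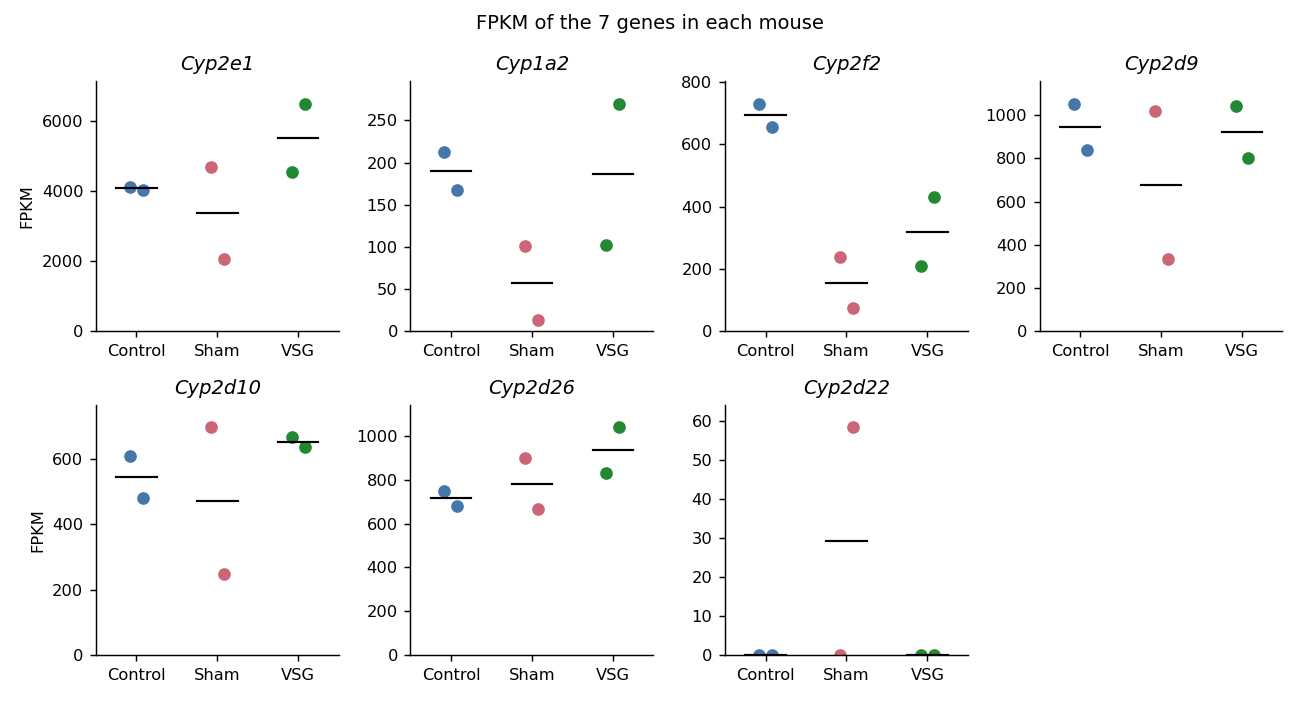
FPKM (y axis, from 0, with a scale of its own for each gene) of the 7 genes in the 2 Control, 2 Sham and 2 VSG mice, with each point 1 mouse and each line a group mean. Cyp2f2 is highest in both Control mice, Sham mouse 2 is the low Sham point for every gene but Cyp2d22, and Cyp2d22 is above 0 in 1 mouse.

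FPKM is a level per transcript length, so that the genes can be ordered. In Control mice the order of means was Cyp2e1, Cyp2d9 (946), Cyp2d26 (716), Cyp2f2 (694), Cyp2d10 (544) and Cyp1a2 (190), and only the neighbours Cyp2d26 and Cyp2f2 overlapped between mice. In Sham mice the order was Cyp2e1, Cyp2d26 (782), Cyp2d9 (676), Cyp2d10 (471), Cyp2f2 (155) and Cyp1a2 (57.0), in which Cyp2d26 overlapped with Cyp2d9, Cyp2d9 with Cyp2d10, and Cyp2f2 with Cyp1a2, while the lower Cyp2d10 mouse (246) lay just above the higher Cyp2f2 mouse (237). In VSG mice it was Cyp2e1, Cyp2d26 (935), Cyp2d9 (923), Cyp2d10 (651), Cyp2f2 (319) and Cyp1a2 (186), in which Cyp2d26 overlapped with Cyp2d9, and Cyp2f2 with Cyp1a2. Cyp2f2 stood above Cyp2d10 in both Control mice and below it in all 4 mice on the high-fat diet.

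The first question was whether the levels changed between Control and Sham mice. Differences were estimated with limma on log2(FPKM + 1), a scale that understates changes of low genes, and called at an adjusted p under 0.1 over all 9869 genes tested. Of the 6 genes tested 0 were called, as against 28 of all genes (0.284%, with 0.0912% higher and 0.193% lower). Without adjustment, 1 of the 6 had a p under 0.05, as had 10.9% of all genes. That gene was Cyp2f2, with a difference of -2.38 on the log2 scale between Sham and Control mice (SE 0.66, limma adjusted p = 0.360). Cyp1a2 had a difference of -2.32 (SE 1.03, limma adjusted p = 0.498). Cyp2f2 and Cyp1a2 stood at percentiles 1.09 and 1.19 of the differences of all genes tested, whose median was 0.04. For both genes the groups did not overlap, as was so in the lower direction for 20.4% of all genes, and in the higher direction for 25.4%.

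The other differences between Sham and Control mice were smaller than 0.7 on the log2 scale. They were -0.69 for Cyp2d9 (SE 0.58), -0.40 for Cyp2e1 (SE 0.51), -0.38 for Cyp2d10 (SE 0.53) and 0.11 for Cyp2d26 (SE 0.29). Without Sham mouse 2 the first 3 turned positive, to 0.12, 0.20 and 0.37. Without that mouse, the difference was -1.54 for Cyp2f2 (limma adjusted p = 0.246) and -0.90 for Cyp1a2 (limma adjusted p = 0.513), with the 1 remaining Sham mouse assumed to vary like the other groups.

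Between VSG and Sham mice, which shared diet and an operation, all 6 differences were positive, and 0 of 6 were called, with 5 of all genes called (0.0507%, with 0.0304% higher and 0.0203% lower). None of the 6 had an unadjusted p under 0.05, as against 4.85% of all genes. The differences were 2.14 for Cyp1a2 (SE 1.03), 1.17 for Cyp2f2 (SE 0.66), 0.81 for Cyp2e1 (SE 0.51), 0.65 for Cyp2d9 and for Cyp2d10, and 0.26 for Cyp2d26. The limma adjusted p was 0.944 for the first 5 and 0.961 for Cyp2d26. Only Cyp1a2 did not overlap between the groups, as was so in the higher direction for 18.5% of all genes, and in the lower direction for 9.78%. The comparison used the same Sham mice as the first one, and without Sham mouse 2 the differences were 0.72 for Cyp1a2, 0.33 for Cyp2f2, 0.21 for Cyp2e1, 0.05 for Cyp2d26, -0.15 for Cyp2d9 and -0.10 for Cyp2d10.

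Between VSG and Control mice 0 of 6 were called, beside 28 of all genes (0.284%, with 0.101% higher and 0.182% lower), and 0 had an unadjusted p under 0.05, as against 9.56% of all genes. Cyp2f2 had a difference of -1.21 (SE 0.66, limma adjusted p = 0.645), and its groups did not overlap, as was so in the lower direction for 14.8% of all genes. Without VSG mouse 1 the difference was -0.69, and without VSG mouse 2 it was -1.72. Cyp2e1 was 0.41 higher (SE 0.51, and 0.16 or 0.67 higher without VSG mouse 2 or 1), Cyp2d26 0.38 higher (SE 0.29) and Cyp2d10 0.27 higher (SE 0.53). These 3 genes did not overlap between groups either, which in the higher direction was so for 33.7% of all genes. Cyp1a2 and Cyp2d9 differed by -0.18 and -0.04, and their groups overlapped.

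**Figure D2:**
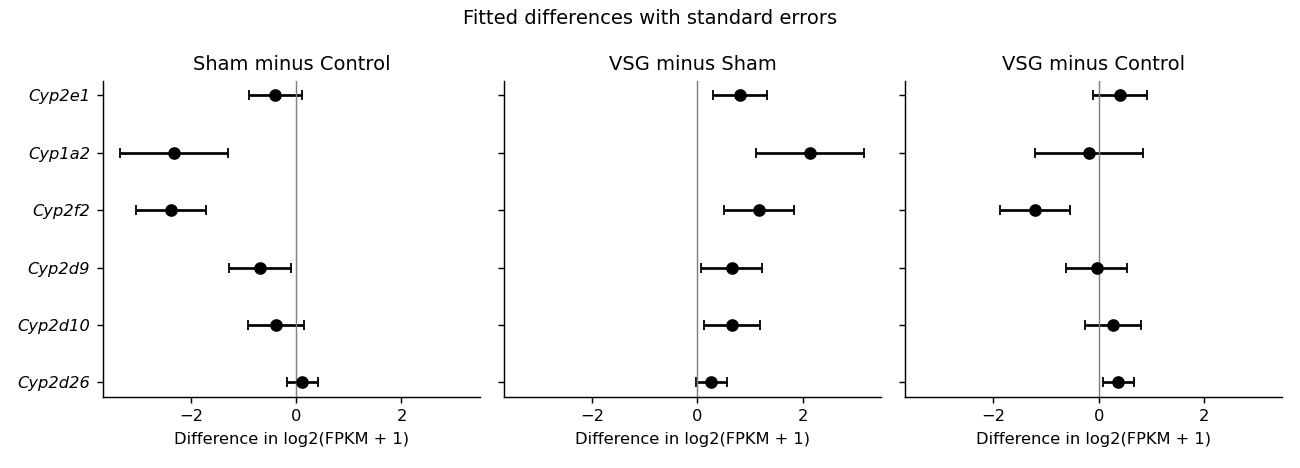
Differences between groups in log2(FPKM + 1) (x axis) for the 6 genes tested (y axis), with bars of 1 standard error of the limma fit and 1 panel for each comparison. Cyp2f2 and Cyp1a2 stand apart at -2.38 and -2.32 in the comparison of Sham with Control mice, and Cyp2f2 is the lowest gene, at -1.21, between VSG and Control mice.

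A ratio of 2 genes within a mouse does not depend on how its library was scaled, and was used to compare the pericentral with the periportal genes. Cyp2e1 exceeded Cyp2f2 by 5.63-fold and 6.14-fold in Control mice, by 19.7-fold and 27.9-fold in Sham mice, and by 21.7-fold and 15.1-fold in VSG mice. Every mouse on the high-fat diet had a ratio above both Control mice, and Sham and VSG mice overlapped. On the log2 scale, with 1 added to each FPKM, the ratio was 1.99 higher in Sham (SE 0.25) and 1.62 higher in VSG (SE 0.27) than in Control mice, and it was -0.37 in VSG relative to Sham mice (SE 0.36). An exact permutation test over the 3 groups, on their mean log2 ratios, gave p = 0.133, where the smallest p that 2 mice a group allow is 0.0667. With 2 mice against 2, no exact p can be under 0.333, which was the value for Sham and for VSG against Control. The 2 comparisons share the Control mice.

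The Cyp1a2 to Cyp2f2 ratio did not follow the same order. It was 0.291 and 0.255 in Control, 0.425 and 0.179 in Sham, and 0.491 and 0.628 in VSG mice. Sham mice lay on both sides of Control mice, and both VSG mice lay above all others (exact permutation p = 0.333 over the 3 groups). The pericentral genes also differed from each other: Cyp2e1 exceeded Cyp1a2 by 19.3-fold and 24.0-fold in Control, by 46.5-fold and 156-fold in Sham, and by 44.2-fold and 24.0-fold in VSG mice. For the ratio of Cyp2e1 to Cyp1a2 the exact permutation p over the 3 groups was 0.0667, the smallest possible. After Benjamini-Hochberg adjustment over the 3 ratios, these exact permutation p-values became 0.2, 0.333 and 0.2 in the order given. Over the 9 comparisons of 2 groups, the smallest adjusted exact permutation p was 0.429.

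**Figure D3:**
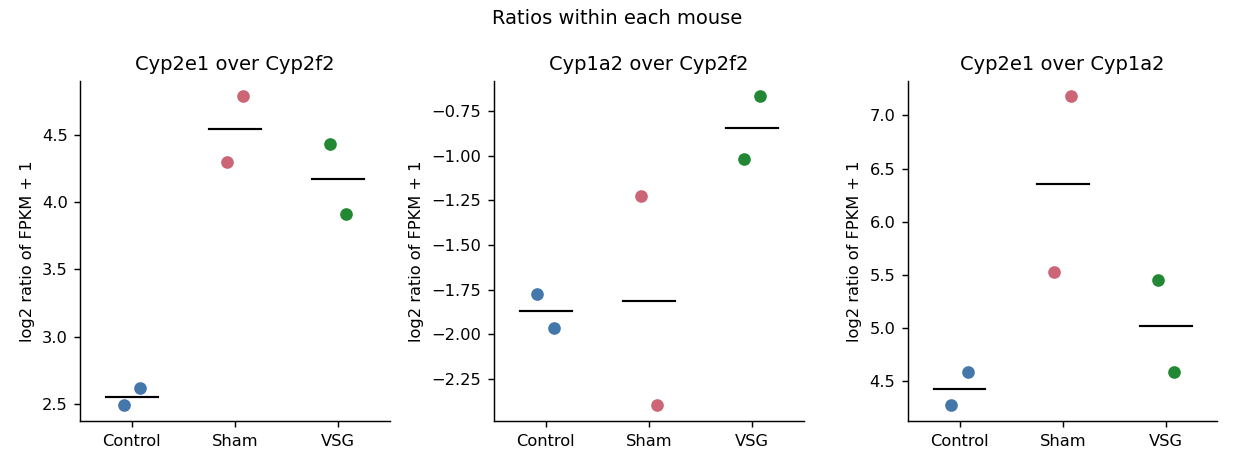
Log2 ratio of FPKM + 1 (y axis, not from 0) within each of the 6 mice for Cyp2e1 over Cyp2f2, Cyp1a2 over Cyp2f2, and Cyp2e1 over Cyp1a2, with lines at group means. In the first panel both Control mice lie near 2.5, and the 4 mice on the high-fat diet lie between 3.91 and 4.78.

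Other genes of either zone were followed as 2 lists. Of 21 periportal genes, all of them tested, 18 were lower and 3 higher in Sham than in Control mice, with a median of -1.41 on the log2 scale, beside a median of 0.04 over all genes. For 13 of the 21 both Sham mice lay below both Control mice, as was so for 20.4% of all genes, and 8 had an unadjusted p under 0.05, as against 10.9% of all genes. Of the 21, 1 was called: Tat, the first enzyme of tyrosine breakdown, fell from an FPKM of 1376 and 1477 in Control to 210 and 188 in Sham mice, a difference of -2.84 (SE 0.24, limma adjusted p = 0.0445). It also fell in VSG relative to Control mice, with 233 and 283 (difference -2.47, SE 0.24, limma adjusted p = 0.0679). Both calls of Tat were lost without either Control mouse or either VSG mouse, and the adjusted limma p without 1 mouse ranged from 0.0587 to 0.613 against Sham and from 0.0639 to 0.652 against VSG mice. Cyp2f2 had a difference of -2.38 in the former comparison, so it lay within the range of this list. Without Sham mouse 2 the list's median was -0.86, with 18 genes lower and 3 higher.

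Of 21 pericentral genes 19 were tested. Of these, 12 were higher and 7 lower in Sham than in Control mice, with a median of 0.40. By limma 0 were called, and 2 had an unadjusted p under 0.05 (10.9% of all genes). For 8 of the 19 both Sham mice lay above both Control mice and for 2 below, as against 25.4% and 20.4% of all genes. The difference between the lists was not tested. A pericentral gene left untested was listed at 0 in all mice. Its most abundant genes were Aldh1a1, a retinaldehyde dehydrogenase, and Ang, which encodes angiogenin. Aldh1a1 had an FPKM of 385 and 361 in Control, 1059 and 299 in Sham, and 972 and 1006 in VSG mice. Ang had 277 and 392 in Control, 918 and 921 in Sham, and 429 and a listed 0 in VSG mice. Cyp1a2 and Cyp2e1, at -2.32 and -0.40, both lay below the median of this list. The summed FPKM of the 21 periportal genes was 7539 and 7916 in Control, 2729 and 3481 in Sham, and 3680 and 5098 in VSG mice, whereas that of the pericentral genes was 2275 and 2211, 3936 and 2411, and 3739 and 3102.

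Between VSG and Sham mice 17 of the 21 periportal genes were higher, with a median of 0.46 beside 0.08 over all genes, and 12 of the 19 pericentral genes were higher, with a median of 0.14. Between VSG and Control mice the medians were -0.55 and 0.28, beside 0.13 over all genes. Tat was the 1 gene of both lists called between VSG and Control mice. In that comparison 5 of 19 pericentral and 3 of 21 periportal genes had an unadjusted limma p under 0.05 (9.56% of all genes). Both VSG mice lay above both Control mice for 9 pericentral and 3 periportal genes (33.7% of all genes). They lay below for 1 pericentral and 8 periportal genes (14.8% of all genes). Between VSG and Sham mice 0 were called, and 1 of each list had an unadjusted p under 0.05 (4.85% of all genes).

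**Figure D4:**
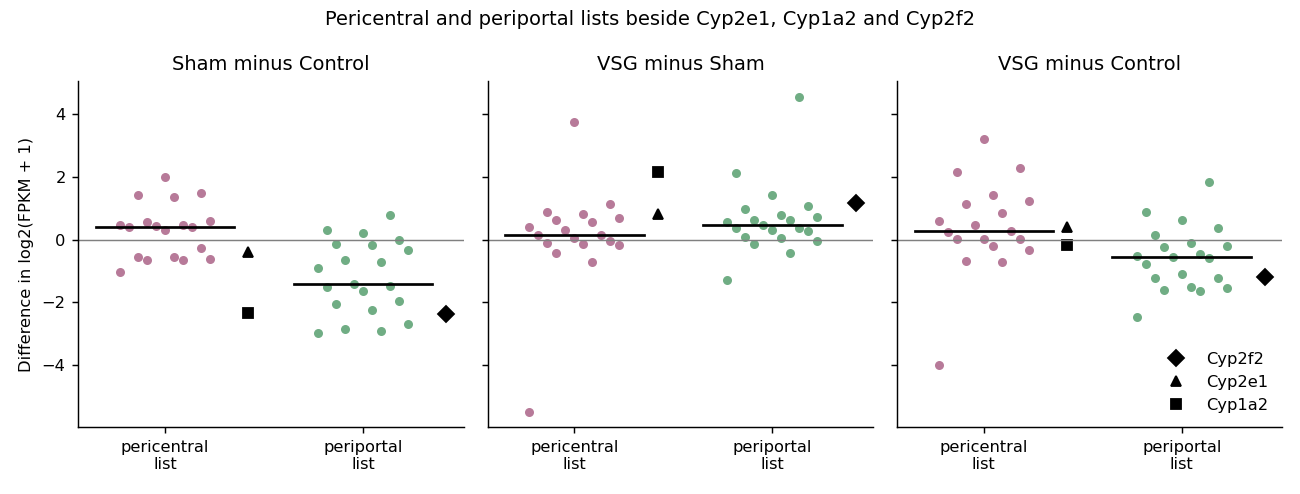
Differences in log2(FPKM + 1) (y axis) of 19 pericentral and 21 periportal genes, with each dot 1 gene, lines at list medians, and black symbols for Cyp2e1, Cyp1a2 and Cyp2f2, which are not in the lists. The periportal median is -1.41 between Sham and Control mice, against 0.40 for the pericentral list, and Cyp1a2 lies under the pericentral genes.

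Partners and regulators of P450 enzymes, and sex-biased liver genes, were called in 0 cases in any of the 3 comparisons by limma. Over the 7 lists that follow 59 entries were tested. Of these, 3 had an unadjusted p under 0.05 between Sham and Control (10.9% of all genes) and 3 between VSG and Sham mice (4.85% of all genes). Between VSG and Control mice the count was 7 (9.56% of all genes). Of 7 genes for electron transfer, 5 were lower and 2 higher in Sham than in Control mice (median -0.07), and 6 were higher in VSG than in Sham mice (median 0.32). Cyb5a, cytochrome b5, had an FPKM of 1302 and 1119 in Control, 1864 and 626 in Sham, and 1305 and 2160 in VSG mice. Pgrmc1, a heme-binding partner of P450 enzymes, had 394 and 524, 773 and 242, and 622 and 642. Both were lowest in Sham mouse 2, as Cyp2e1 was, and without that mouse the median of the 7 was 0.38 between Sham and Control and -0.15 between VSG and Sham mice.

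Heme, the cofactor of all P450 enzymes, is made from a first step catalysed by Alas1. Of 12 genes of heme synthesis and breakdown, 8 were higher in Sham than in Control mice (median 0.24) and 10 were higher in VSG than in Sham mice (median 0.32). Alas1 had an FPKM of 140 and 190 in Control, 225 and 128 in Sham, and 219 and 420 in VSG mice, and Blvrb, biliverdin reductase B, 92.3 and 80.7, 168 and 83.3, and 131 and 190.4. Without Sham mouse 2 these medians were 0.47 and 0.03, and without Sham mouse 1 they were 0.01 and 0.53. In 7 of the 12 genes both VSG mice exceeded both Control mice, as was so for 33.7% of all genes.

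Cyp1a2 is a target of the aryl hydrocarbon receptor. Of 8 tested genes of this pathway, 7 were lower in Sham than in Control mice, with a median of -0.43, and 6 were higher in VSG than in Sham mice, with a median of 0.15. Ugt1a6a and Ugt1a6b, both glucuronosyltransferases of this pathway, share exons, so that their reads cannot be cleanly divided. Ugt1a6b had an FPKM of 149 and 132 in Control, 188 and 78.4 in Sham, and 145 and 163 in VSG mice, and Ugt1a6a 44.9 and 45.2, 26.1 and 23.3, and 30.4 and 46.7. Without Sham mouse 2, 4 of the 8 genes were lower and 4 higher in Sham than in Control mice.

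Of 13 tested liver transcription factors, 7 were lower and 6 higher in Sham than in Control mice (median -0.30, or 0.04 without Sham mouse 2). Cebpa, a factor that hepatocytes need for many metabolic genes, had an FPKM of 103 and 109 in Control, 120 and 114 in Sham, and 145 and 144 in VSG mice. Cebpb, its relative in the acute phase response, had 127 and 121, 126 and 65.6, and 68.3 and 46.4. Male-biased genes were examined because Cyp2d9 is one: 6 of 8 tested were lower in Sham than in Control mice, with a median of -1.13, which became -0.11 without Sham mouse 2. Nudt7, a coenzyme A hydrolase, had an FPKM of 229 and 316 in Control, 463 and 158 in Sham, and 614 and 369 in VSG mice, and Selenbp2, a selenium-binding protein, 482 and 265, 200.1 and 34.1, and 198 and 49.8.

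Of 4 tested female-biased genes, 2 were lower and 2 higher in Sham than in Control mice (median 0.01, or -0.59 without Sham mouse 2). Cyp2a4, a steroid hydroxylase, had an FPKM of 69.7 and 58.1 in Control, 27.6 and 1.07 in Sham, and 15.9 and 152 in VSG mice. Cyp2b9 had 0.0562 and 0.0675 in Control, 8.43 and 0.324 in Sham, and 17.9 and 103 in VSG mice. Of 7 tested genes that carry growth hormone signals, on which sex bias in liver depends, 4 were lower and 3 higher in Sham than in Control mice (median -0.04). Bcl6, a repressor in this pathway, had 2.61 and 1.57, 15.3 and 4.60, and 18.0 and 25.7, and Igf1, a secreted growth factor, 27.8 and 57.0, 20.7 and 43.9, and 58.0 and 54.5.

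Genes of inflammation and of other cell types also differed between mice, and their part in the results was not tested. The summed FPKM of the 10 acute phase genes in the table was 14012 and 14299 in Control, 35508 and 64560 in Sham, and 27086 and 10934 in VSG mice, so that Sham mouse 2, low in Cyp1a2 and Cyp2f2, was the highest here. Of 9 tested, 7 were higher in Sham than in Control mice (median 1.71) and 9 of 9 lower in VSG than in Sham mice (median -1.45). By limma 0 were called in these 2 comparisons, as against 0.284% and 0.0507% of all genes. An unadjusted p under 0.05 was found for 5 and 2 of the 9, as against 10.9% and 4.85% of all genes. Among them, Hp, haptoglobin, had an FPKM of 5340 and 5572 in Control, 14410 and 22141 in Sham, and 11080 and 4459 in VSG mice. Orm1, an acute phase glycoprotein, had 1351 and 1318, 6956 and 11195, and 5117 and 1720.

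Markers of 6 liver cell types gave 0 calls by limma, while 13 of 36 tested had an unadjusted p under 0.05 between Sham and Control (10.9% of all genes), 10 between VSG and Sham (4.85%), and 10 between VSG and Control mice (9.56%). The 6 hepatocyte markers in the table summed to 31004 and 26178 in Control, 31723 and 21245 in Sham, and 36572 and 26528 in VSG mice, led by Apoa1 (6334 to 11117) and Fabp1 (3214 to 15153). The median of hepatocyte markers was -0.67 between Sham and Control mice, with 5 of 6 lower, and -0.24 with 4 of 6 lower without Sham mouse 2. The 10 Kupffer cell markers, led by C1qa and C1qb (6.91 to 60.8), summed to 51.7 and 34.2 in Control, 133 and 122 in Sham, and 101 and 329 in VSG mice. The 9 sinusoidal endothelial markers, led by Clec4g and Fcgr2b (2.19 to 26.1), summed to 50.2 and 23.4, 9.68 and 8.17, and 33.9 and 30.7. The 10 stellate cell markers, led by Dcn and Rgs5 (1.79 to 53.3), summed to 50.5 and 52.3, 20.5 and 37.7, and 59.9 and 78.8. The 6 cholangiocyte markers summed to 30.7 and 32.8, 186 and 62.9, and 145 and 30.9, which was almost all Spp1 (28.5 to 183), with Sox9 between 0.384 and 2.75. The 7 neutrophil markers, led by S100a8 and S100a9 (2.25 to 23.2), summed to 12.4 and 4.91, 41.7 and 45.6, and 21.9 and 16.4. No marker of these lists was at 0 in all mice. Between Sham and Control mice 9 of 10 Kupffer cell genes were higher (median 1.03), and 8 of 8 sinusoidal endothelial genes lower (median -1.11). Without Sham mouse 2, 8 of 10 Kupffer cell genes were higher (median 0.92). So were 2 of 2 neutrophil genes (median 2.07) and 2 of 2 cholangiocyte genes (median 1.705). Lower without that mouse were 7 of 7 sinusoidal endothelial genes (median -1.26) and 6 of 8 stellate cell genes (median -0.37).

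The genes most like each zonal gene were found by the Pearson correlation of log2(FPKM + 1) over the 6 mice, among 3676 genes with a mean FPKM of at least 10. These correlations are a description, since 6 mice that share a low Sham mouse give high values for many genes. For Cyp2e1 they were Larp1b (r = 0.997), Fn3k (r = 0.995) and Hnmt (r = 0.991). For Cyp1a2 they were Uqcrc1 (r = 0.993), Cyp2c54 (r = 0.992) and Sugct (r = 0.990). For Cyp2f2 they were Hpd (r = 0.995), Ugt2b1 (r = 0.993) and Dmac2 (r = 0.989). Hpd, an enzyme of tyrosine breakdown, had an FPKM of 1580 and 1410 in Control, 885 and 415 in Sham, and 708 and 1174 in VSG mice. Among the P450 genes themselves, Cyp2d9 and Cyp2d10, which share reads, had r = 0.957. The periportal Cyp2f2 had r = 0.651 with the pericentral Cyp2e1 and r = 0.913 with the pericentral Cyp1a2. The pericentral pair, Cyp2e1 and Cyp1a2, had r = 0.900.

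FAIRE-seq shows which of these loci held open chromatin. The authors called peaks with F-seq in each mouse and deposited 1 list a group of the peaks reproducible in both mice, so that no value per mouse and no test are possible. The Control list has 42204 peaks, the Sham list 52881 and the VSG list 44539. Merged peaks that touched a gene or its flanks of 10 kb numbered 48, of which 22 were present in all 3 groups (45.8%, as against 55.2% of all 59246 merged peaks). Sham peaks alone made up 8 of the 48 (16.7%, as against 17.1%), and peaks of Sham and VSG but not Control 7 (14.6%, as against 10.3%). By gene, the 48 were 9 at Cyp2f2, 8 at Cyp2e1, 7 at Cyp2d9, 7 at Cyp2d22, 6 at Cyp2d10, 6 at Cyp2d26 and 5 at Cyp1a2.

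A peak lay within 100 bases of the start site in all 3 lists for 6 of the 7 genes, as it did for 80.7% of 587 genes with a mean FPKM of at least 100 and for 77.3% of those with at least 1. The exception was Cyp2f2, whose promoter printed above was covered by 0 of 250 bases in the Control list and by all 250 in the Sham and VSG lists. Those 2 peaks ranked low, above 7.64% of the Sham list and 16.3% of the VSG list by signal. Cyp2f2 RNA was thus most abundant in the group whose list has no peak at its start. The printed Cyp2e1 window was covered entirely in all 3 lists, and that of Cyp1a2 at 70.4%, 83.6% and 80.4% in Control, Sham and VSG.

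At the other start sites the summit of the peak lay upstream of the GENCODE start, from which the positions here are counted. It lay between -58 and -89 in Cyp1a2, Cyp2d9 and Cyp2d10, between -117 and -166 in Cyp2e1, and between -264 and -284 in Cyp2d26. The printed Cyp2e1 window and its motif are counted from the RefSeq start, 80 bases further downstream. Cyp2d22 differed, with its summit 635 to 657 bases inside the gene. Its peak, chr15:82209840-82210692, stood above 87.6%, 85.7% and 91.9% of the Control, Sham and VSG lists by signal, although its RNA was listed at 0 in 5 mice.

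**Figure D5:**
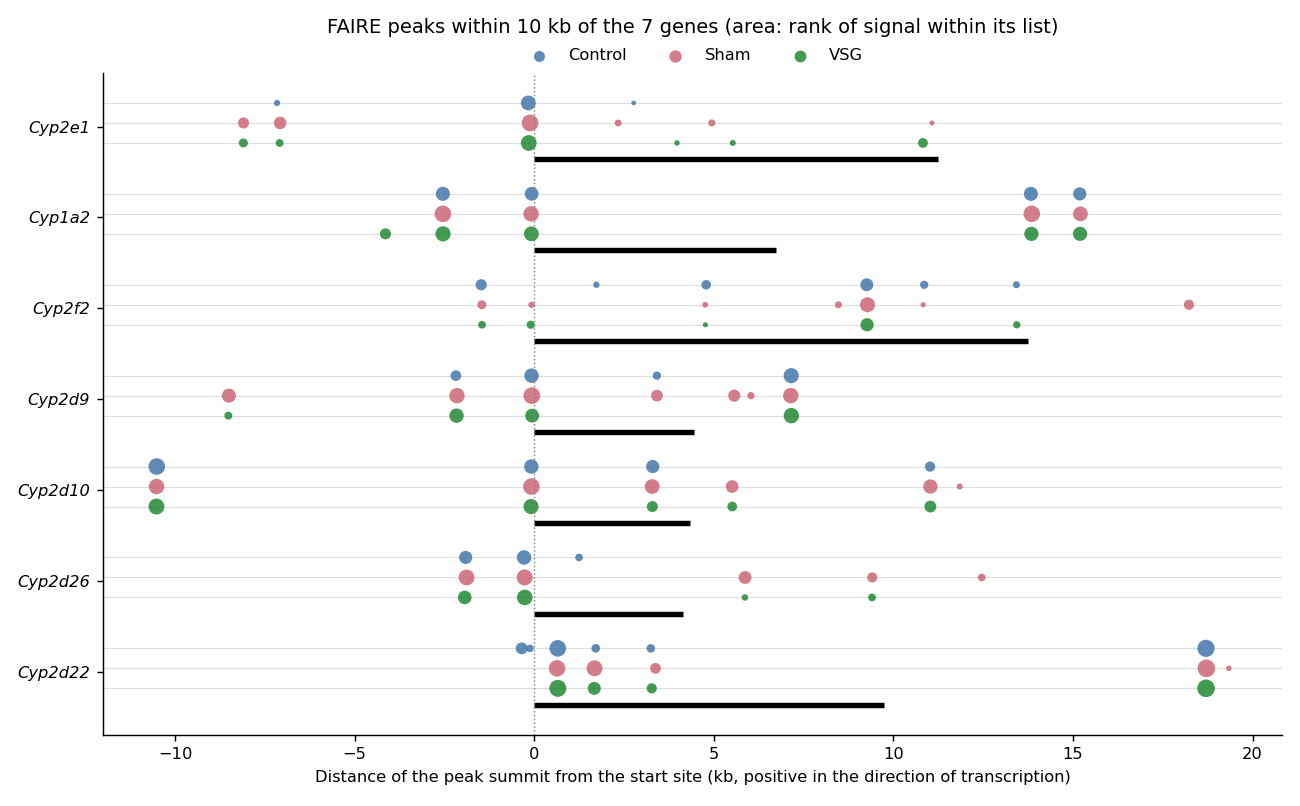
Summits of FAIRE peaks near the 7 genes in the Control, Sham and VSG lists (rows within a gene). The x axis is the distance from the GENCODE start site, in kb along the direction of transcription. Dot area grows with the rank of the signal within its list, and black bars show gene length. Start-site peaks appear in all rows but that of Control at Cyp2f2.

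Signal depends on the depth of a list and was compared by rank, in percent, among the 32716 peaks present in all 3. The start-site peak of Cyp2e1 stood at 60.3 in the Control list, 81.9 in the Sham list and 69.9 in the VSG list. Cyp2d9 stood at 54.9, 81.0 and 45.5, Cyp2d10 at 55.1, 78.3 and 60.8, Cyp2d26 at 55.1, 68.7 and 68.0, and Cyp1a2 at 47.0, 59.9 and 57.3. Cyp2d22 stood at 84.0, 77.1 and 89.0. Thus 5 of these 6 peaks ranked over 10 points higher in Sham than in Control, as did 26.9% of all shared peaks. In RNA, 0 of these 5 genes were called by limma in either direction.

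Of all 22 shared peaks near the genes, 13 ranked over 10 points higher in Sham than in Control mice (26.9% of all), 11 over 10 points lower in VSG than in Sham mice (27.4% of all), and 5 over 10 points higher in VSG than in Control mice (21.2% of all). These comparisons share lists, and neighbouring peaks are not independent. Each count covers only the direction named, and peaks that moved over 10 points the other way were not counted. Between VSG and Control, for example, an exonic Cyp2d10 peak moved by -21.1 points and the upstream Cyp2f2 peak by -17.5. The largest rise from Control to Sham was in an intron of Cyp2d22, chr15:82207848-82209415, from 9.69 to 67.3, with 36.2 in VSG. Positions are of peaks merged over the lists. A peak upstream of Cyp1a2, chr9:57533870-57534208, toward its neighbour Cyp1a1, went from 51.0 to 80.0, with 62.9 in VSG. An upstream peak of Cyp2d9, chr15:82280393-82280830, went from 19.7 to 58.8, with 52.4 in VSG. The largest move down was upstream of Cyp2d10, chr15:82247513-82248311, from 83.2 to 59.3, with 72.5 in VSG.

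At Cyp2f2 shared peaks moved in both directions. The peak upstream, chr7:27903121-27903609, stood at 23.2 in Control, 7.01 in Sham and 5.74 in VSG, and an exonic one, chr7:27909588-27910378, at 13.6, 1.15 and 0.851. Another exonic peak, chr7:27913991-27914688, stood at 37.8, 52.7 and 38.6. The first of these differences between Sham and Control, -16.2 points, lay at percentile 20.6 of those of all shared peaks. Without values per mouse, none of these differences can be set against replicate error.

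The authors deposited lists of sites that differed between Sham and VSG mice, and of sites that changed in Sham and were reversed in VSG mice. No list of all sites that differed between Sham and Control mice was among them. Across the 4 lists, which hold 99, 414, 175 and 61 sites, 0 sites were within 100 kb of the 7 genes. The nearest was 1868984 bases from Cyp2f2. The share of all genes with a site within 100 kb was not computed, so the 0 cannot be read as particular to these genes.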

How the data were processed

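The authors aligned 50-base RNA reads to mm9 with TopHat2 and deposited FPKM per RefSeq transcript, computed with Cufflinks, for 1 liver of each of 6 mice. FAIRE reads were aligned with Bowtie, and the authors deposited F-seq peaks kept by IDR, with a signal value per peak, as 1 list a group. A mean normalised count per gene (signal scale, over the 4 mice compared) was also used, as the authors' mean. Fold changes and p-values of the authors' own comparisons were not used. The labels describe poly(A) enrichment and the study's methods rRNA depletion. Tool versions are not given in the sources used here, and absolute depth is unknown.

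Of 34933 transcripts, 34046 matched a gene, and FPKM were summed over 24910 genes. The 9869 genes that reached 1 FPKM in 2 or more mice were fitted as log2(FPKM + 1) with limma 3.58.1 (R 4.3.3), all 3 groups together with a trend in the variance, and p-values adjusted by Benjamini-Hochberg, with a threshold of 0.1. Ratios were compared by two-sided exact permutation tests. P-values measure the spread between these mice only. Named genes were all 7 P450 genes, the other Cyp2d genes, and from each list those past the threshold (up to 3) or else the 2 with the highest mean. The pseudogene Cyp2d13 was added after its values were seen, as was the 100-base window at start sites. Members and lists were chosen with earlier results of these data known. FAIRE peaks were merged over groups when sharing at least 1 base. Sequences came from RefSeq (GRCm38.p6), matched exactly to mm9, and Cyp2d22 has no promoter entry. Scripts used Python 3.11.15, pandas 2.3.3, scipy 1.17.1 and Biopython 1.88. Only the limma fit was tested on simulated data.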

Additional observations from a re-analysis of the deposited data

How the results depend on the processing

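With 2 mice a group, the spread is poorly known, and the number of genes called depended on the mice: leaving out each mouse in turn, it was 0 to 168 between Sham and Control (28 with all mice), 0 to 76 between VSG and Sham (5 with all mice) and 0 to 34 between VSG and Control (28 with all mice), with 168, 76 and 34 without Sham mouse 2. It was 64 between Sham and Control with no FPKM filter, and 17 with only those groups in the fit. Between VSG and Sham it was 8 with a pseudocount of 0.1, 0 with only those groups in the fit and 9 per transcript. With the replicate number as a block it was 9, 0 and 10 for the 3 comparisons. The block changed no call of the P450 genes, while Tat lost both calls under it (limma adjusted p = 0.154 and 0.234 for Sham and VSG against Control). Tat also lost the call against Sham with only the 2 groups in the fit (limma adjusted p = 0.148) and that against VSG with no FPKM filter (limma adjusted p = 0.103). The correlations of the differences between mice 1 and 2 were 0.118, 0.0643 and 0.039 for pairs of groups, so that the numbers were not taken as pairs. Of the P450 genes 0 were called by limma under any setting, the lowest adjusted p being 0.17 (Cyp2f2).

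Of 144 fold changes of these genes under other settings 142 kept their direction. The exceptions were Cyp2d26 between Sham and Control with FPKM scaled to an equal sum, a setting chosen after seeing the data (-0.00034), and Cyp2d9 between VSG and Control with quantile normalization (0.0059). Many of the 144 could not change direction. The fold change stays the same with no FPKM filter, no trend, only the 2 groups in the fit, the replicate block or single transcripts. Leaving out 1 mouse reversed 9 and kept 99. The 99 include fits without a mouse of the group not compared, which leave the difference unchanged. Between Sham and Control the ranges were -3.75 to -0.90 for Cyp1a2, -1.49 to 0.12 for Cyp2d9, -1.13 to 0.37 for Cyp2d10, -0.10 to 0.33 for Cyp2d26, -0.99 to 0.20 for Cyp2e1 and -3.22 to -1.54 for Cyp2f2. Between VSG and Sham they were 0.72 to 3.57 for Cyp1a2, -0.15 to 1.46 for Cyp2d9, -0.096 to 1.40 for Cyp2d10, 0.05 to 0.48 for Cyp2d26, 0.21 to 1.41 for Cyp2e1 and 0.33 to 2.01 for Cyp2f2. Between VSG and Control they were -0.87 to 0.51 for Cyp1a2, -0.23 to 0.15 for Cyp2d9, 0.10 to 0.44 for Cyp2d10, 0.21 to 0.54 for Cyp2d26, 0.16 to 0.67 for Cyp2e1 and -1.72 to -0.69 for Cyp2f2. The Cyp1a2 to Cyp2f2 ratio between Sham and Control ranged from -0.53 to 0.64, whereas the Cyp2e1 to Cyp2f2 ratio ranged from 1.74 to 2.23. FAIRE peaks near the genes numbered 115 with flanks of 50 kb and 19 among peaks above the median signal of each list, as against 48.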

Other observations

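The authors' mean normalised counts over Control and Sham mice rose less steeply than FPKM among abundant transcripts. Per FPKM and kilobase of transcript, the median was 22.7 for 3036 transcripts with FPKM from 1, 14.3 for 1707 from 10, 4.2 for 374 from 100 and 0.73 for 37 from 1000. Per base of transcript, the mean count was 1.71 for Cyp2e1, 1.39 for Cyp2d26, 1.26 for Cyp2f2, 1.16 for Cyp2d9, 0.874 for Cyp2d10 and 0.829 for Cyp1a2. The highest value was 1.89 among transcripts with FPKM from 1000, the class of Cyp2e1. Among those from 100 to under 1000, the class of the other genes, the highest was 2.02 and the median 0.914. Cyp2e1 thus had a mean FPKM of 3720 and a mean count of 3124 in these mice, whereas Cyp2f2 had 425 and 2343. The cause was not tested.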
